A study of Mus musculus with 6 samples.

Results

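Interferon-stimulated genes encode the antiviral programme of the cell. From a list of names, 47 of them were followed here in mouse prostate cancer cells exposed to platinum drugs. The list follows no measured value, but earlier results of these data were known when it was chosen. All 47 were found among the 54446 genes of the count table through their GENCODE M21 symbols. Every library came from TRAMP-C2, 1 cell line derived from a prostate tumour of a male C57BL/6 TRAMP mouse, in which a prostate promoter drives the SV40 T antigen. Control cells received no drug, and the other cells received 2 µM oxaliplatin or 2 µM cisplatin, with all cells at 24 h and 2 libraries of poly(A) RNA per group. All cultures shared a medium with serum, bovine insulin and dehydroisoantrosterone. Both drugs carry platinum that crosslinks DNA. Cisplatin holds it between ammine and chloride ligands, and oxaliplatin between a diaminocyclohexane and an oxalate. Nothing in the labels says that replicate libraries came from separate cultures, so p-values measure the spread between these libraries, which may be technical.

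Interferon binds receptors whose kinases, JAK1 and TYK2 for type I interferon, phosphorylate transcription factors. With IRF9 these form a complex that binds the interferon-stimulated response element in promoters, and IRF family proteins can bind the same element without interferon when a nucleic acid sensor is active. The products degrade or edit viral RNA, block translation, tag proteins with ISG15, coat vacuoles of pathogens and hold virus particles at the membrane. In tumour cells their RNA is often read as a sign of interferon signalling or of nucleic acid sensing.

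Total counts ran from 21345312 to 24041767 per library, so that 3 counts, the limit that a count of 0 allows, amount to between 0.125 and 0.141 CPM, counts relative to the total of the library. That limit covers counting error only. Of the 24 cell type markers examined, the prostate gene Pbsn and the basal keratin gene Krt5 had 0 counts in every library, and Epcam had 0 to 2, whereas the mesenchymal genes Vim and Fn1 were abundant. These markers of prostate and epithelial cells were thus absent or nearly so, and the cells are called by the label of the line. Because RNA came from whole cultures, fewer responding cells and less RNA per responding cell cannot be told apart in any value below.

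Untreated TRAMP-C2 cells already held RNA of nearly all these genes. Each count was divided by the size factor of its library to give a normalised count. Levels of different genes are compared as normalised counts per kilobase of exon, here the mean of the 2 control libraries. On that scale Ifitm3, which blocks fusion of virus with endosomes, stood highest at 3956.4, followed by Ifi27 at 786 and by Bst2, which tethers budding virus, at 489. A middle tier held the translation and RNA decay factors Samd9l (255), Eif2ak2 (234) and Isg20 (216), together with Ifit2 (232) and Isg15 (220). Rsad2 (13.1), Cmpk2 (8.85) and Irf7 (11.7) lay well below them, and Oas2 (2.925), Oas3 (1.695) and Mx1 (0.521) were the lowest apart from Epsti1 (2.21). Mx1 and Epsti1 did not pass the filter of 10 counts in 2 libraries and were not tested. Mx1 had normalised counts of 0 and 3.94 in control, 8.36 and 2.05 in oxaliplatin and 10.8 and 4.09 in cisplatin libraries, and C57BL/6 mice are known to carry a defective allele of this gene. Epsti1 ranged from 1.97 to 9.28. Of the 47 genes 43 had at least 10 counts in all 6 libraries, and none of the 45 tested had passed the filter through 1 group only.

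**Figure D1:**
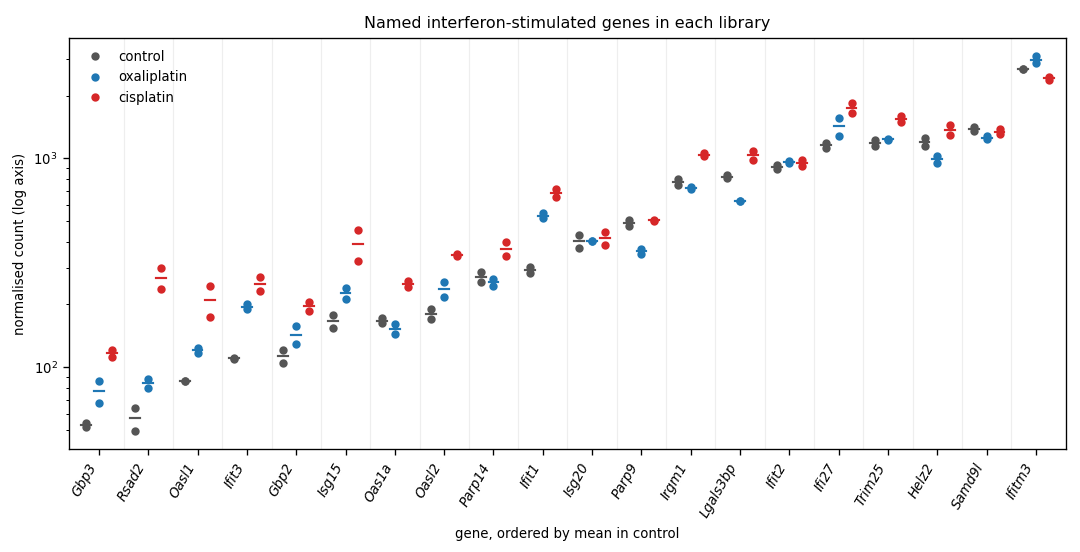
Normalised counts (log axis) of the 20 genes named by rule in each of the 6 libraries. Points are libraries, short lines are means of the 2 libraries of a group, and genes are ordered by their control mean. Rsad2 libraries of cisplatin cells stood at 236 and 298, above all other Rsad2 libraries, whereas the 6 Ifit2 libraries lay between 894.5 and 983.

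Some of these genes carry the response element near their start, and such matches are shown because the element is known as the sequence through which type I interferon acts. RefSeq promoters (GRCm38.p6, 250 bases before to 50 after the transcript start) were searched for 37 of the 47 genes. The pattern GAAANNGAA was sought on both strands. It was found for 20 of the 37 genes (54.1%), against 9.76% of the 27025 genes searched that had a window of that length. A gene was counted where any of its windows held a match. A longer form with a further A at its end was found for 16 (43.2%), against 3.99%. The NF-κB site was found for 8 (21.6%) against 9.55%. The longer form lies inside the shorter one, so these 2 counts overlap. Windows of genes on which the results turn are given 5′ to 3′ along the gene's strand, with matches to the element, on either strand, in capitals.
Ifit1, chr19:34640765-34640828, plus strand: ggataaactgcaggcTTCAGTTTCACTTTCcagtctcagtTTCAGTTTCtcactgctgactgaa
Ifit3, chr19:34583359-34583450, plus strand: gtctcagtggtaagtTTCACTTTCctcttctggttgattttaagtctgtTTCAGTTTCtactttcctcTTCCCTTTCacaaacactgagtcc
Rsad2, chr12:26456548-26456586, minus strand: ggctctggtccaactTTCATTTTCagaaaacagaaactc
Isg15, chr4:156200861-156200911, minus strand: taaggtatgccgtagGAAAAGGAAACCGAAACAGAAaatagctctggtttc
Gbp3, chr3:142559985-142560029, plus strand: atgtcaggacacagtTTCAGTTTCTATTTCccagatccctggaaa
Gbp2, chr3:142620590-142620628, plus strand: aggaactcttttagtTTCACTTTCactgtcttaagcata
Irgm1, chr11:48871421-48871465, minus strand: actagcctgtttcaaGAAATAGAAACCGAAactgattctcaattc
Bst2, chr8:71537573-71537617, minus strand: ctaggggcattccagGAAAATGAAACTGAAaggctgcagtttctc

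The window of Ifit3b (chr19:34607755-34607846, plus strand) held the same 92 bases as that of Ifit3, with 0 differences. Counted from the first transcribed base as 0, the matches of Ifit1 began at -109, -103 and -84, those of Isg15 at -78, -72 and -66, and the match of Rsad2 at -119. In the capitals of Ifit1, Isg15, Gbp3, Irgm1 and Bst2 neighbouring matches ran into each other. A match is a string of letters and not a site shown to be bound.

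**Figure D2:**
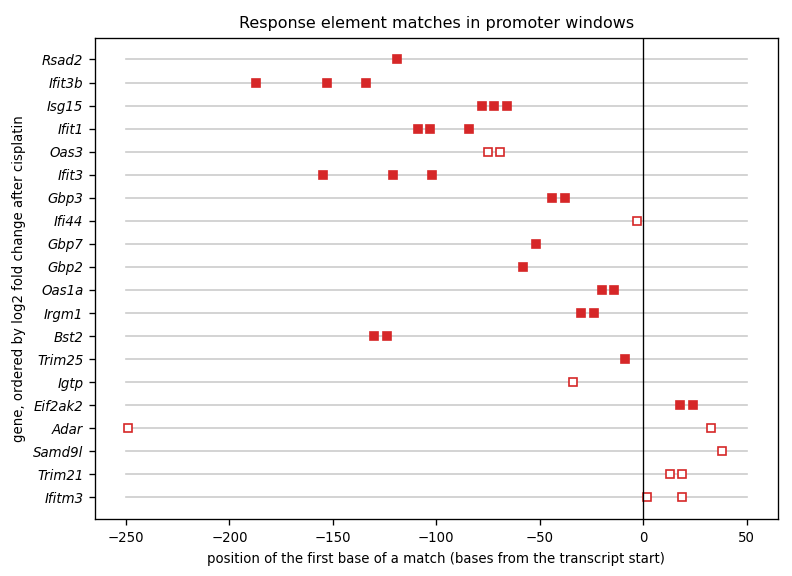
Positions of element matches (bases from the transcript start) in the promoter windows of the 20 genes that had one, ordered by log2 fold change after cisplatin. Grey lines mark the windows from 250 bases before to 50 after the start, filled squares mark genes called higher after cisplatin (13 of 20) and open squares the other genes. Genes called and not called had matches on both sides of the start. Matches of the called genes Rsad2, Isg15 and Ifit1 and of the uncalled genes Oas3, Igtp and Ifi44 lay upstream. Those of the called gene Eif2ak2 and of the uncalled genes Ifitm3, Trim21 and Samd9l lay after the start.

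After 24 h at 2 µM, 21 of the interferon-stimulated genes were higher in cisplatin than in control cells, by 1.22-fold (Eif2ak2) to 4.69-fold (Rsad2), and oxaliplatin changed 6 of them, 3 in each direction. A gene is called where its DESeq2 adjusted p is under 0.05. The 21 genes called higher after cisplatin were of 45 tested, where 15.7% of all 14956 genes tested were, and 0 were called lower, where 12.4% of all genes were. Before adjustment 26 genes had a p under 0.05 (35.7% of all genes), Ifitm3 being the one below control, and edgeR's quasi-likelihood test called 30 higher (20.7% of all genes) and Ifitm3 lower (20.2%). After oxaliplatin 3 genes were called higher, Ifit1, Ifit3 and Ifi27, where 10.7% of all genes were, and 3 lower, Lgals3bp, Parp9 and Helz2, where 9.50% were. The share called higher after cisplatin thus lay above that of all genes. The 3 calls in each direction after oxaliplatin are too few to be set apart from the shares of all genes.

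Median log2 fold changes over the 45 genes were 0.46 after cisplatin and 0.15 after oxaliplatin, beside -0.0008 and -0.0029 for all genes. Values above 0 were found for 42 genes after cisplatin and for 28 after oxaliplatin. Both cisplatin libraries lay above both control libraries in 38 genes (34.6% of all genes), and both oxaliplatin libraries did so in 22 (32.1%) and lay below in 9 (32.7%). By edgeR 9 genes were called higher after oxaliplatin (15.6% of all genes) and 4 lower (15.3%). A rise of at least 1 on the log2 scale was called for 7 genes after cisplatin (0.816% of all genes) and for 0 after oxaliplatin (0.261%), where 11 genes had an unadjusted p under 0.05 (28.2% of all genes). Both contrasts use the same control libraries, so they are set side by side and not compared with each other. DESeq2 gave no adjusted p to 6 genes of low count in the oxaliplatin contrast.

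These counts fell when a library was left out, and a smaller number of libraries lowers counts by construction. The shares of all genes called in such fits were not taken, so the fall is not read as particular to these genes. The cisplatin count fell most without control replicate 1 or either cisplatin library, and less without control replicate 2 or either oxaliplatin library. The oxaliplatin count of 6 was 3 without control replicate 1, 2 without control replicate 2, 2 without oxaliplatin replicate 1 and 1 without oxaliplatin replicate 2, that one being Ifit1. In every alternative fit that gave an adjusted p, 9 cisplatin calls held, those of Oasl1, Oasl2, Ifit1, Ifit3, Rsad2, Isg15, Trim25, Irgm1 and Ifi27.

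**Figure D3:**
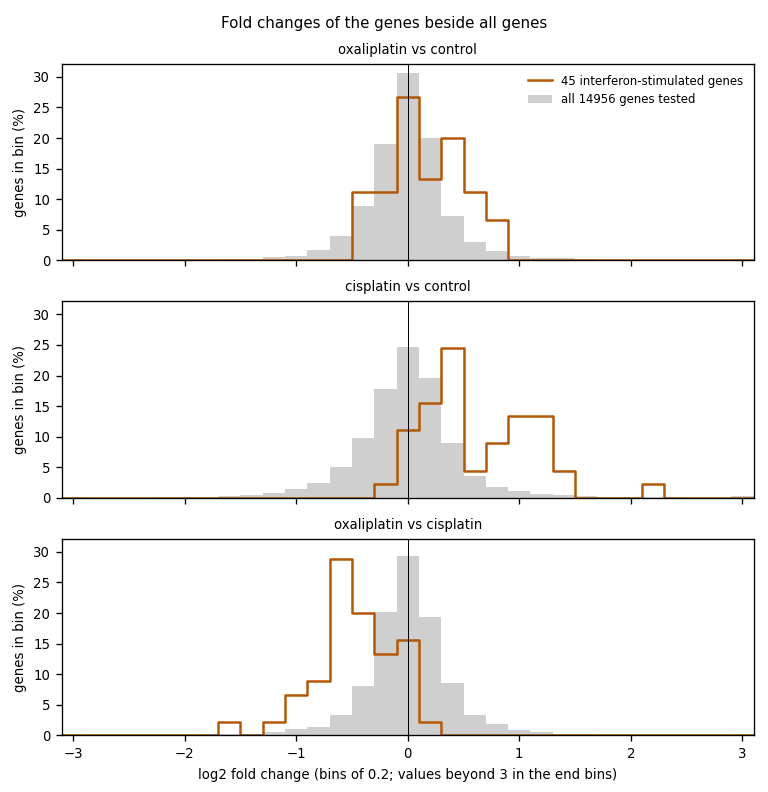
Share of genes (%) in bins of log2 fold change for all 14956 genes tested (grey bars) and for the 45 interferon-stimulated genes (line), in each of the 3 contrasts. The genes' median stood at 0.46 after cisplatin, 0.15 after oxaliplatin and -0.49 for oxaliplatin against cisplatin.

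The IFIT genes had calls after both drugs, with 2 of 4 called higher after oxaliplatin and 3 after cisplatin. The product of Ifit1 binds the 5′ end of foreign RNA. They lie together on chromosome 19 (Ifit1 at 34640871 to 34650009, GRCm38). Ifit1 had normalised counts of 284 and 302 in control, 545 and 519.9 in oxaliplatin and 713 and 655 in cisplatin libraries. The 3 groups did not overlap, with control lowest and cisplatin highest. Ifit1 rose 1.82-fold after oxaliplatin (log2 0.86 ± 0.13 SE, DESeq2 adjusted p = 1.87e-09) and 2.33-fold after cisplatin (1.22 ± 0.13, adjusted p = 4.47e-19), and it was the only oxaliplatin call that held without each of the 6 libraries in turn.

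Ifit3 followed with 110.0 and 111 in control, 190.3 and 201 in oxaliplatin and 269.6 and 232 in cisplatin libraries. Its groups were separate in the same order. The rise was 1.77-fold after oxaliplatin (0.82 ± 0.21, DESeq2 adjusted p = 9.24e-04) and 2.27-fold after cisplatin (1.18 ± 0.21, adjusted p = 2.75e-07). The oxaliplatin call was lost without oxaliplatin replicate 2 (adjusted p = 0.0891), and no adjusted p was given without oxaliplatin replicate 1.

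Ifit3b, a near copy of Ifit3 with which it may exchange reads, was called after cisplatin (log2 1.33 ± 0.43, DESeq2 adjusted p = 0.00952). The call was lost without control replicate 1, and no adjusted p was given without control replicate 2 or either cisplatin library. The fourth family member behaved otherwise. Ifit2 stood at 894.5 and 926 in control, 977 and 954 in oxaliplatin and 983 and 921 in cisplatin libraries, and its log2 fold changes were 0.08 (95% interval -0.10 to 0.27) and 0.06 (-0.12 to 0.25). No element match was found in its promoter windows.

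Rsad2, encoding viperin, which turns CTP into a chain terminator of viral RNA synthesis, had the largest rise of the group after cisplatin. Its normalised counts were 49.8 and 64.0 in control, 79.8 and 88.0 in oxaliplatin and 298 and 236 in cisplatin libraries. Cisplatin libraries lay far above the other 4, and oxaliplatin libraries lay a little above control. The cisplatin rise was 4.69-fold (log2 2.23 ± 0.27, DESeq2 adjusted p = 7.24e-15), and the oxaliplatin value of 0.56 ± 0.28 was not called (0.147). Cmpk2, a nucleotide kinase gene that lies next to Rsad2 on chromosome 12, had 35.3 and 38.4 in control, 60.3 and 47.1 in oxaliplatin and 80.4 and 63.4 in cisplatin libraries. It was called after cisplatin (0.96 ± 0.39, DESeq2 adjusted p = 0.0405), but not without control replicate 1 or either oxaliplatin library. Its call was also lost with total-count scaling, when all genes with a count were tested and with only the libraries compared. No adjusted p was given for Cmpk2 with a replicate block, or without control replicate 2 or either cisplatin library.

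Among the genes of double-stranded RNA binding and RNA decay 4 of 11 were called higher after cisplatin. Many OAS proteins make the second messenger that activates RNase L, and OAS-like proteins can act on RNA sensing or translation. Oasl1 had 86.1 and 85.7 in control, 124 and 117 in oxaliplatin and 245 and 174 in cisplatin libraries. Its cisplatin libraries lay highest but differed from each other by more than the control libraries did. The rise was 2.44-fold after cisplatin (1.29 ± 0.26, DESeq2 adjusted p = 1.12e-05), and the oxaliplatin value of 0.49 was not called (0.187).

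Oasl2 showed 170.2 and 189 in control, 257 and 217 in oxaliplatin and 347 and 341 in cisplatin libraries, again without overlap. It rose 1.91-fold after cisplatin (0.94 ± 0.18, DESeq2 adjusted p = 3.27e-06), and the oxaliplatin value of 0.40 missed the threshold (0.0998). Oas1a had 163 and 171 in control, 144 and 161 in oxaliplatin and 243 and 258 in cisplatin libraries, so that the drugs lay on either side of control. Its cisplatin rise of 0.58 ± 0.20 (adjusted p = 0.0128) was lost without any of the 6 libraries (0.0635 to 0.242). Eif2ak2, the kinase PKR that stops translation when it binds double-stranded RNA, was higher by 0.28 ± 0.09 (adjusted p = 0.00933), a call lost without control replicate 1 or either cisplatin library (0.0734 to 0.235).

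The other 7 genes of this class were not called after cisplatin. Oas2 and Oas3 had the largest values among them (1.36 ± 0.63 and 1.19 ± 0.69), on at most 37.3 normalised counts. Adar, whose product edits double-stranded RNA, and Oas1b, which is truncated in most laboratory strains, had cisplatin values of 0.18 and 0.46. Helz2, a helicase and nuclear receptor coactivator, was called lower after oxaliplatin with 1151.8 and 1246 in control, 1029 and 948 in oxaliplatin and 1288 and 1447 in cisplatin libraries. The oxaliplatin libraries lay below the other 4. The value of -0.28 ± 0.10 (DESeq2 adjusted p = 0.0217) was lost without any of the 6 libraries (0.0569 to 0.334).

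Samd9l and Isg20 were abundant and not called in any contrast. Samd9l, a translation inhibitor, had 1356 and 1415 in control, 1243 and 1274 in oxaliplatin and 1377 and 1309 in cisplatin libraries. The exonuclease gene Isg20 had 429.6 and 374 in control, 404 and 404 in oxaliplatin and 446 and 387 in cisplatin libraries. Cisplatin and control libraries overlapped for both, with log2 values of -0.04 (95% interval -0.20 to 0.11) for Samd9l and 0.05 (-0.24 to 0.34) for Isg20.

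**Figure D4:**
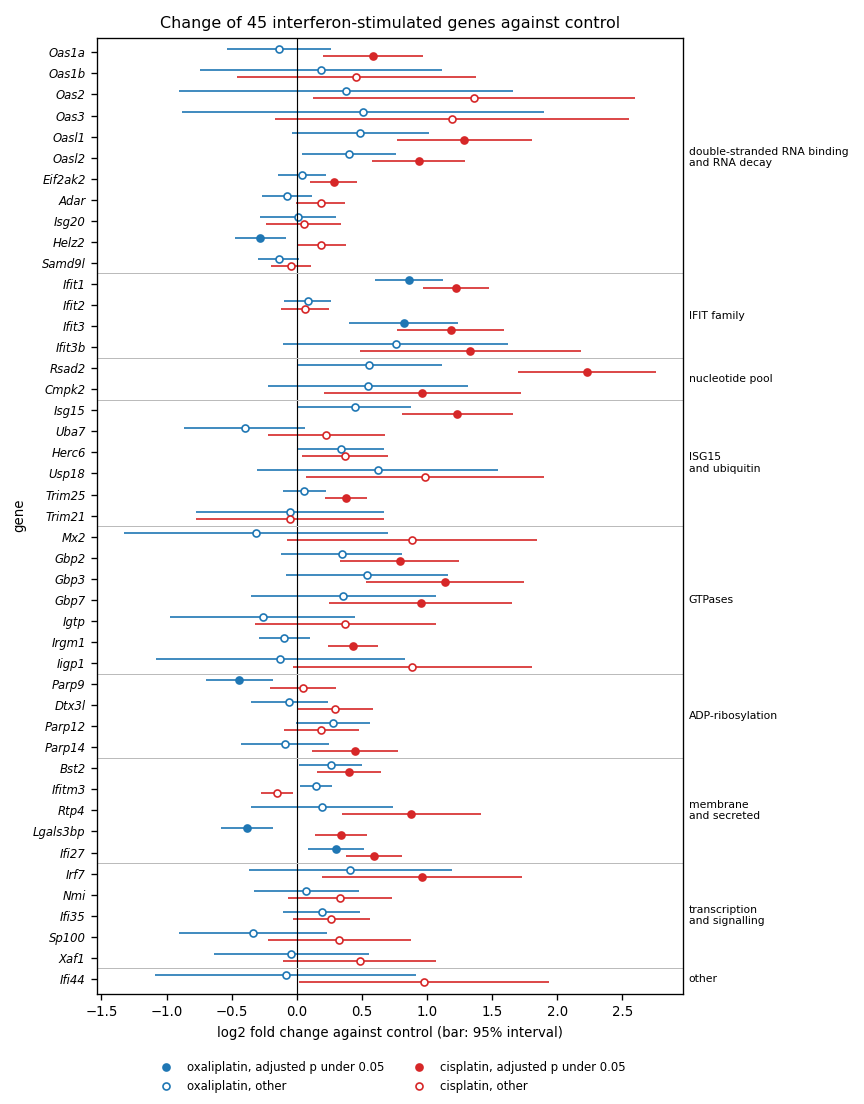
Log2 fold change against control with its 95% interval for 45 genes after oxaliplatin (blue) and cisplatin (red), grouped by role; both use the same control libraries. Filled points are calls at an adjusted p under 0.05. Red points reached 2.23 for Rsad2, and 21 of them are filled, all to the right of 0, against 6 filled blue points.

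ISG15 is a ubiquitin-like protein that is joined to other proteins by its own set of enzymes. Isg15 had normalised counts of 155 and 177 in control, 240.4 and 212 in oxaliplatin and 457 and 322 in cisplatin libraries. Cisplatin libraries were highest and oxaliplatin libraries lay between. It rose 2.35-fold after cisplatin (1.23 ± 0.22, DESeq2 adjusted p = 2.45e-07), and the oxaliplatin value of 0.45 was not called (0.132). Trim25, a ligase for both ubiquitin and ISG15, had 1224.5 and 1148 in control, 1237.5 and 1231 in oxaliplatin and 1597 and 1486 in cisplatin libraries. Its cisplatin libraries lay well above the other 4, with a rise of 0.38 ± 0.08 (adjusted p = 5.06e-05). The activating enzyme gene Uba7, the ligase gene Herc6, the ISG15 protease gene Usp18 and the antibody receptor gene Trim21 were not called against control, with cisplatin values of 0.23, 0.37, 0.98 and -0.05. Usp18 had 20.8 and 52.2 in the control libraries, a wider gap than within either drug group. Across genes, too, the control libraries differed more from each other (mean chi-square 4.44 per gene) than the oxaliplatin (2.75) or cisplatin (2.73) libraries did.

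The GTPases include guanylate-binding proteins and immunity-related GTPases, which act on vacuoles of pathogens. Of 7 tested, 4 were called higher after cisplatin. Irgm1, a regulator of the immunity-related GTPases, had 745 and 799 in control, 729.7 and 716 in oxaliplatin and 1027 and 1057 in cisplatin libraries. Its cisplatin libraries lay highest and its oxaliplatin libraries just below control. The rise was 0.43 ± 0.10 (DESeq2 adjusted p = 6.86e-05).

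Gbp3 had 51.9 and 54.2 in control, 86.3 and 67.5 in oxaliplatin and 121 and 113 in cisplatin libraries, a separate set of values for each group. It rose 2.20-fold after cisplatin (1.14 ± 0.31, DESeq2 adjusted p = 0.0015). The call was lost without control replicate 1 or cisplatin replicate 2, and no adjusted p was given without cisplatin replicate 1. Gbp2 had 105 and 121 in control, 157 and 130.0 in oxaliplatin and 205 and 186 in cisplatin libraries, and the groups kept the same order. Its cisplatin rise of 0.79 ± 0.23 (adjusted p = 0.00375) was lost without control replicate 1 or either cisplatin library (0.0751 to 0.155). Gbp7 (0.95 ± 0.36, DESeq2 adjusted p = 0.0283) lost its call without control replicate 1, cisplatin replicate 2 or either oxaliplatin library. No adjusted p was given for Gbp7 without cisplatin replicate 1. Mx2, Igtp and Iigp1 had cisplatin values of 0.88, 0.37 and 0.89 and were not called. Igtp shares 162 exon bases with Irgm2 on the same strand, so reads may be divided between them.

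Of 4 genes of ADP-ribosylation 1 was called lower after oxaliplatin and 1 higher after cisplatin. Parp14, a mono-ADP-ribosyltransferase, had 257 and 286 in control, 265.5 and 245 in oxaliplatin and 398 and 342 in cisplatin libraries, and only its cisplatin libraries stood apart. Its cisplatin rise of 0.45 ± 0.17 (DESeq2 adjusted p = 0.029) was lost without any of the 6 libraries (0.0916 to 0.401). Parp9 had 472 and 506 in control, 370.4 and 350.0 in oxaliplatin and 504 and 507.5 in cisplatin libraries. Its oxaliplatin libraries were lowest, and the cisplatin libraries lay at the control level. The oxaliplatin value of -0.44 ± 0.13 (adjusted p = 0.00496) was lost without either control or either oxaliplatin library (0.0505 to 0.191). Parp9 shares 458 exon bases with its partner Dtx3l on the opposite strand, and Dtx3l showed -0.06 after oxaliplatin and 0.29 after cisplatin, neither called. Parp12 had 0.28 after oxaliplatin and 0.19 after cisplatin and was not called either.

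Among membrane and secreted proteins the drugs lay on opposite sides of control for Lgals3bp. Lgals3bp, a secreted glycoprotein that binds galectins, had 802 and 834.5 in control, 628.5 and 626 in oxaliplatin and 1083 and 987 in cisplatin libraries. Oxaliplatin libraries lay below control and cisplatin libraries above it, with no overlap. The oxaliplatin value was -0.38 ± 0.10 (DESeq2 adjusted p = 0.00159) and the cisplatin value 0.34 ± 0.10 (adjusted p = 0.00364). The first call was lost without control replicate 2 or either oxaliplatin library (0.0816 to 0.0821) and the second without either control library or cisplatin replicate 1 (0.0533 to 0.212).

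Ifi27, a small membrane protein gene and the second most abundant per kilobase, had 1187 and 1120.2 in control, 1278 and 1566 in oxaliplatin and 1840.1 and 1644 in cisplatin libraries. Groups were ordered from control to cisplatin without overlap. The cisplatin rise was 1.51-fold (0.60 ± 0.11, DESeq2 adjusted p = 7.87e-07), and the oxaliplatin rise of 0.30 ± 0.11 (adjusted p = 0.0282) was lost without either control library, oxaliplatin replicate 2 or either cisplatin library (0.0547 to 0.557). Bst2 and Rtp4, a chaperone of receptors, were called after cisplatin with 0.40 ± 0.12 (adjusted p = 0.00572) and 0.88 ± 0.27 (adjusted p = 0.00582). The Bst2 call was lost without control replicate 1 or either cisplatin library (0.13 to 0.153) and the Rtp4 call without either control library or cisplatin replicate 1 (0.073 to 0.269).

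Ifitm3, the most abundant gene of the group, ran the other way. Its normalised counts were 2675 and 2689.7 in control, 2863 and 3080.4 in oxaliplatin and 2451 and 2384 in cisplatin libraries. Oxaliplatin libraries were highest and cisplatin libraries lowest, without overlap. Against control neither value was called by DESeq2 (0.15 ± 0.06, adjusted p = 0.0658, after oxaliplatin and -0.15 ± 0.06, adjusted p = 0.0532, after cisplatin). By edgeR both values passed (adjusted p = 0.0259 and 0.0168). The cisplatin value also passed with TMM scaling (0.0432), with total-count scaling (0.00794) and with 10 counts required in every library (0.0499), below control each time.

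Transcription factors and signalling proteins of the list were largely uncalled. Irf7, which amplifies interferon production, had 33.2 and 55.2 in control, 61.3 and 56.3 in oxaliplatin and 101 and 71.6 in cisplatin libraries. It was called after cisplatin at 0.96 ± 0.39 (DESeq2 adjusted p = 0.0446). The call was lost without control replicate 1 or either oxaliplatin library. Testing all genes with a count, total-count scaling and leaving out independent filtering also ended the call. So did a replicate block and a fit of only the libraries compared. No adjusted p was given for Irf7 without control replicate 2 or either cisplatin library. Nmi, Ifi35, Sp100 and Xaf1 had cisplatin values of 0.33, 0.26, 0.33 and 0.48 and oxaliplatin values of 0.07, 0.19, -0.34 and -0.04, none called. Ifi44, of a class of its own, had 0.98 ± 0.49 after cisplatin (adjusted p = 0.116).

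Promoter matches and cisplatin calls can be set beside each other for the 36 tested genes with a window. Of the 20 genes with an element match 13 were called higher after cisplatin, with a median log2 fold change of 0.69 after cisplatin and 0.20 after oxaliplatin. Of the 16 without a match 5 were called, namely Oasl1, Oasl2, Cmpk2, Lgals3bp and Irf7, with medians of 0.33 and 0.08. These values describe the list, and the difference between genes with and without a match was not tested.

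Oxaliplatin and cisplatin were compared directly at 2 µM and 24 h, the 1 pair of compounds in these libraries. Oxaliplatin cells had the lower level of 17 genes, where 11.3% of all genes were called lower, and the higher level of 1, Ifitm3, where 8.62% were called higher. The median difference was -0.49 on the log2 scale, beside -0.0033 for all genes, and both oxaliplatin libraries lay below both cisplatin libraries in 38 of 45 genes (34.5% of all genes). By edgeR 25 genes were called lower (16.5% of all genes) and Ifitm3 higher (15.4% of all genes). A difference of at least 1 was called for Rsad2 alone (0.234% of all genes).

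Rsad2 differed most, with oxaliplatin cells at 0.314 of the cisplatin level (log2 -1.67 ± 0.26, DESeq2 adjusted p = 3.11e-09). Calls were also made for Lgals3bp at -0.72 ± 0.10 (adjusted p = 5.65e-11), Irgm1 at -0.53 ± 0.10 (1.12e-06) and Helz2 at -0.47 ± 0.10 (2.39e-05). These 4 calls held in every alternative fit that gave an adjusted p, which for Rsad2 left out 3 of the 6 fits without a library. Ifitm3 was higher in oxaliplatin cells by 0.30 ± 0.06 (adjusted p = 2.85e-05), a call lost without oxaliplatin replicate 2 (0.0578).

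Other calls between the drugs were lost in some fits without a library. Isg15 (-0.78 ± 0.21, DESeq2 adjusted p = 0.00186) lost its call without oxaliplatin replicate 2 or cisplatin replicate 1 (0.0958 and 0.27), and Trim25 (-0.32 ± 0.08, 9.64e-04) without either oxaliplatin library or cisplatin replicate 1 (0.0734 to 0.15). The call of Oas1a (-0.72 ± 0.20, 0.00212) was lost without either oxaliplatin library, and no adjusted p was given without either cisplatin library. That of Oasl1 (-0.80 ± 0.26, 0.0104) was lost without oxaliplatin replicate 2. No adjusted p was given for Oasl1 without oxaliplatin replicate 1 or either cisplatin library. Without any 1 of the 4 drug libraries the calls of Oasl2 (-0.54 ± 0.18, 0.0139, then 0.0895 to 0.349), Parp9 (-0.49 ± 0.13, 0.00153, then 0.065 to 0.128) and Parp14 (-0.54 ± 0.17, 0.00888, then 0.0632 to 0.314) were lost. The remaining calls were those of Uba7 (-0.63), Rtp4 (-0.69), Ifi27 (-0.29), Adar (-0.26) and Eif2ak2 (-0.24), with DESeq2 adjusted p of 0.0309 to 0.0438. Each was lost without control replicate 2, and each but Eif2ak2 without control replicate 1. The calls of Adar and Eif2ak2 were also lost without any 1 of the 4 drug libraries. That of Ifi27 was lost without oxaliplatin replicate 1 or either cisplatin library, and that of Uba7 without oxaliplatin replicate 2. For Rtp4 no adjusted p was given in the fits that left out a drug library. For Uba7 none was given without oxaliplatin replicate 1 or either cisplatin library. Over the list the count of 18 fell in every fit without a library, and it fell most without a drug library. The shares of all genes called in those fits were not taken.

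The IFIT genes differed less between the drugs than Rsad2 did. Ifit1 was lower in oxaliplatin cells by 0.36 on the log2 scale (log2 -0.36 ± 0.12, DESeq2 adjusted p = 0.018), which was lost without control replicate 2 or any drug library (0.052 to 0.367). Ifit3 had the same size of difference with a wider interval (-0.36, 95% interval -0.75 to 0.03) and was not called. For some genes no difference between the drugs was called and the interval was narrower than for Ifit3. These were Ifit2 (0.02, -0.16 to 0.20), Samd9l (-0.09, -0.25 to 0.06), Isg20 (-0.04, -0.33 to 0.25), Herc6 (-0.03, -0.35 to 0.30) and Parp12 (0.09, -0.19 to 0.37). The intervals of Isg20, Herc6 and Parp12 still held differences as large as some of those called. The intervals of Usp18 (-0.36, -1.26 to 0.53) and Trim21 (0.0003, -0.72 to 0.72) were wide.

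**Figure D5:**
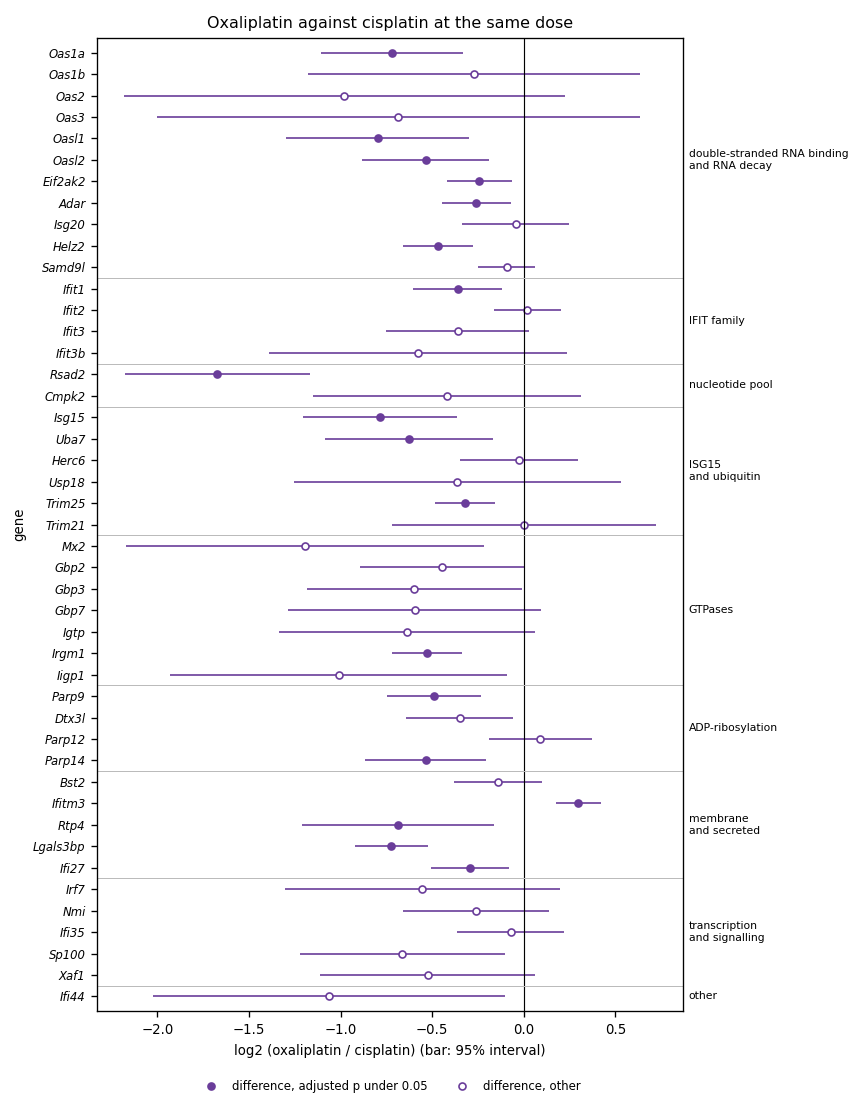
Log2 ratio of oxaliplatin to cisplatin with its 95% interval for 45 genes, grouped by role; filled points are calls at an adjusted p under 0.05. Of the 18 filled points 17 lie to the left of 0, with Rsad2 farthest at -1.67, and Ifitm3 lies to the right at 0.30.

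Over the 3 contrasts 19 of the 45 genes were called in none. The share of all genes called in none was not taken, so this count is not read as many or few. The 19 genes included 3 of the 4 OAS genes other than the OAS-like ones, Ifit2, Samd9l, Isg20, the GTPase genes Mx2, Igtp and Iigp1 and, from ISG15 conjugation, Herc6 and Usp18. Low counts limited several of them, since Oas2, Oas3, Oas1b, Mx2, Iigp1 and Ifi44 had no adjusted p in the contrasts that include oxaliplatin, whereas Ifit2, Samd9l and Isg20 were abundant.

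Genes that carry the interferon signal were examined from a list of 52 ligands, receptors, kinases, factors, sensors and inhibitors, of which 30 were tested. Among the ligands Ifnb1 had 0 and 1 counts in control, 1 and 0 in oxaliplatin and 2 and 2 in cisplatin libraries, Ifng and all interferon alpha genes listed had 0 in every library, and Ifnz had 0 to 10.1. These ligand levels lie at or near the limit of 3 counts except for Ifnz. After cisplatin 11 pathway genes were called higher and 3 lower, and after oxaliplatin 2 higher and 5 lower, beside the background shares given for the interferon-stimulated genes.

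The type I receptor gene Ifnar1 fell after both drugs, from 2346 and 2318 in control to 1908 and 1917 in oxaliplatin and 2016.5 and 2086 in cisplatin libraries (-0.29 ± 0.06, DESeq2 adjusted p = 6.74e-05, and -0.19 ± 0.06, 0.0136, the latter lost without any library at 0.0763 to 0.258). Jak1, the kinase of all interferon receptors, rose after cisplatin by 0.23 ± 0.05 (adjusted p = 1.48e-05) and held without each library. Irf9 rose after cisplatin by 0.44 ± 0.12 (adjusted p = 0.00269, lost without either control or either cisplatin library at 0.059 to 0.139).

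The other calls against control were smaller or were lost in some fits without a library. After cisplatin the receptor genes Ifngr2 (0.27), Il10rb (0.37) and Ifngr1 (0.25), the factors Irf1 (0.31) and Irf2 (0.28), the RNA sensor gene Ddx58 (0.49) and the phosphatase genes Ptpn2 (0.23) and Ptpn6 (1.03) were higher, and Irf3 (-0.38) and the kinase gene Ikbke (-0.51) were lower. After oxaliplatin Ifngr1 (0.24) and Ptpn2 (0.21) were higher, and the kinase genes Jak2 (-0.24), Tyk2 (-0.33) and Ikbke (-0.61) were lower. None of these 15 calls held without each library in turn. Ptpn6 after cisplatin had no adjusted p in 3 of the fits without a library. The call of Ifngr2 was lost without cisplatin replicate 1 (DESeq2 adjusted p = 0.0656), that of Il10rb without cisplatin replicate 2 (0.121), that of Irf1 without control replicate 2 or cisplatin replicate 1 (0.0501 and 0.0771), that of Ddx58 without control replicate 1 or cisplatin replicate 1 (0.0806 and 0.0892) and that of Ptpn6 without control replicate 1 or oxaliplatin replicate 1 (0.0523 and 0.251). Jak2 lost its call without either control or either oxaliplatin library (0.0824 to 0.159), Ikbke after oxaliplatin without any library but control replicate 1, where no adjusted p was given (0.0702 to 0.348), and the other 8 calls without any of the 6 libraries (0.0766 to 0.445).

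The sensor adaptor gene Tmem173, encoding STING, split like Lgals3bp. It had 1558 and 1506 in control, 1299 and 1324 in oxaliplatin and 1882 and 1795 in cisplatin libraries. Oxaliplatin libraries lay below control and cisplatin libraries above it. The values were -0.22 ± 0.07 (DESeq2 adjusted p = 0.0141, lost without any library at 0.0711 to 0.25) and 0.26 ± 0.07 (0.00189, lost without control replicate 2 or cisplatin replicate 1 at 0.0885 and 0.143). Between the drugs the difference of -0.49 ± 0.07 (adjusted p = 1.50e-09) held without each library, as did those of Ifngr2 (-0.41 ± 0.07), Il10rb (-0.50 ± 0.10) and Jak1 (-0.28 ± 0.05). Jak2 (-0.23 ± 0.07) and Irf5 (-0.46 ± 0.15) lost theirs without any 1 of the 4 drug libraries (0.0541 to 0.31), and Ptpn6 (-1.36 ± 0.37) had an adjusted p in only 1 of the 6 fits without a library. Of the 30 pathway genes DESeq2 called 7 lower (11.3% of all genes) and 0 higher (8.62%) in oxaliplatin than in cisplatin cells, and edgeR called 10 lower (16.5%) and 3 higher (15.4%). Before adjustment 11 had a p under 0.05 (28.5% of all genes).

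Markers of other cell types were near 0. Of 9 leukocyte markers 4 had 0 counts in every library, Ptprc had at most 1, and the sum was mostly Csf1r. The summed normalised count was 10.4 to 17.7 in control, 9.21 to 12.1 in oxaliplatin and 20.5 to 21.6 in cisplatin libraries. These few counts moved with the cisplatin group, and their part in the values above was not tested.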

How the data were processed

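Poly(A) RNA of TRAMP-C2 cells was sequenced from a stranded kit, and groups and replicate numbers came from the sample titles. The authors deposited RSEM expected counts for each gene, an estimate in which reads matching several genes are shared out. Per the submitters' processing notes, STAR (2.5.3a), RSEM (1.3.0) and build GRCm38.p6 were named. The study's methods name another counting program for its in vitro RNA-seq, and whether counting used strand is not given in the sources used here, so overlapping and near-identical genes are uncertain. The genes, the pathway and marker lists and the tests were chosen with earlier results of these data known.

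Symbols came from GENCODE M21 (54409 of 54446 identifiers matched) and promoters from RefSeq (GRCm38.p6). Promoters on the chromosome that holds Iigp1 were left out of the search, both for the list and for the genes it was set against. Expected counts were rounded. The 14956 genes that reached 10 counts in 2 or more libraries were fitted with DESeq2 (1.42.0, R 4.3.3), using group as the factor over all 6 libraries, median-of-ratios size factors, two-sided Wald tests, Benjamini-Hochberg adjustment over all genes at 0.05 and independent filtering at 0.1. Log2 fold changes were not shrunken, and an adjusted p of NA stayed NA. Full values are given for the 12 called genes with the smallest adjusted p in each contrast and the 3 most abundant genes called in none, and for called pathway genes. Alternatives were edgeR (4.0.16), other scalings and filters, a replicate block, only the libraries compared, Ifit3 and Ifit3b summed, and leaving out each library, where a group left with 1 library is assumed to vary like the others. The fits were tested on simulated data, where edgeR made false calls above its nominal rate and more often than DESeq2. Some items on the lists are not reported here.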

Additional observations from a re-analysis of the deposited data

How the results depend on the processing

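The 928 alternative values of the 20 genes given in full kept their direction and side of the threshold in 826 cases, were no longer past it in 84, newly past it in 10 and changed sign in 8, none of these called. With total-count scaling the sign changed for Isg20 after oxaliplatin (-0.0058) and Parp9 after cisplatin (-0.0008). When a library was left out, Isg20 ran from -0.0854 to 0.1128 after oxaliplatin, from -0.0545 to 0.1536 after cisplatin and from -0.1416 to 0.0633 between the drugs, Parp9 from -0.0024 to 0.0992 after cisplatin, and Ifit2 from -0.0255 to 0.0682 between the drugs. Counts of called interferon-stimulated genes moved more. Apart from edgeR and the fold threshold, the shares of all genes called in the fits that follow were not taken. After oxaliplatin the count of 6 was 13 by edgeR's quasi-likelihood test and 0 with a log2 fold change of at least 1, and 1 to 4 when a library was left out. After cisplatin the count of 21 was 7 at a log2 fold change of at least 1, 9 to 16 without a library, and 15 to 31 under the other alternatives. Between the drugs the count of 18 was 1 at a log2 difference of at least 1, 4 to 14 without a library and 9 to 26 otherwise. Of the pathway genes edgeR called 14 after oxaliplatin and 13 between the drugs. The cause of these shifts was not tested, apart from the fold threshold and the smaller number of libraries, which lower counts by construction.

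Replicate numbers did not pair the libraries. Deviations of same-numbered libraries from their group means had Pearson correlations across genes of 0.01 for control and oxaliplatin, 0.04 for control and cisplatin and -0.01 for the drugs. With the replicate number as a block DESeq2 called 3 genes after oxaliplatin, 15 after cisplatin and 9 between the drugs, and 2, 7 and 4 pathway genes. The share of all genes called with that block was not taken. Scaling by TMM or by total counts moved the median of all genes by 0.0487 or less on the log2 scale. Low counts limited precision, so that the 95% interval after oxaliplatin ran from -0.90 to 1.66 for Oas2 and from 0.03 to 0.27 for Ifitm3.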
